A study of Homo sapiens with 3 samples.

Results

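The cytosolic heat shock genes described here were chosen by name as HSPA6, HSPA1A, HSPA1B, HSPA8, HSPH1, DNAJB1, BAG3, HSPB1, HSP90AA1 and HSF1, and every row of the array that the platform annotation ties to one of these 10 genes was read, which gave 22 of 54675 probe sets. The arrays held RNA of the established lung adenocarcinoma cell line NCI-H1650, and the series asked what colossolactone H, a triterpenoid of the fungus Ganoderma colossum, does to its transcriptome. One group was the control, for which the labels give neither a vehicle nor a time of collection. The other groups were cells exposed to 40 μM colossolactone H for 12 h and for 24 h, started per the labels from 1000000 cells in a 10 cm dish. Each group held 1 Affymetrix array, so 3 arrays carried no replicate spread, and every difference below describes these arrays without error or p-value. Both treated arrays were set against the same control array.

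Heat shock proteins are chaperones that hold, fold or clear unfolded proteins. In unstressed cells the transcription factor HSF1 is kept inactive by chaperones, and when unfolded proteins draw these away it assembles, binds heat shock elements and raises transcription of HSP70, HSP90, their co-chaperones and small heat shock proteins. Tumour lines often carry many of these messengers without stress, while HSPA6 is an HSP70 gene that is nearly silent until stress induces it.

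The 22 probe sets were not equally specific. HSPA6, HSPH1, DNAJB1, BAG3, HSPB1, HSP90AA1 and HSF1, 7 of the 10 genes, had 15 probe sets annotated to them alone. The other 7 probe sets were shared. The 3 probe sets of HSPA1A and HSPA1B name both genes, and 1 of them, 200800_s_at, also names HSPA1L. The 4 probe sets of HSPA8 also name SNORD14C and SNORD14D, small nucleolar RNAs that lie within its introns. No value could therefore be given to HSPA1A or HSPA1B alone, and the HSPA8 values are those of its locus. Of the 22 probe sets, 21 exceeded a floor of 61.4 signal units, the 50th percentile of all values, on at least 1 array, and all of these 21 did so on all 3 arrays. The exception, 213756_s_at of HSF1, had signals of 51.7 for the control, 30.5 for 12 h and 5.3 for 24 h, all below the floor.

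The regulatory element that this gene group is known for was looked for in the 250 bases before each annotated start (RefSeq, GRCh38.p14), because it is the sequence that HSF1 binds. Promoters were found for 9 of the 10 genes, HSF1 being the other. The element was searched on both strands as 2 facing units, GAANNTTC or TTCNNGAA, and as a longer form in which a 3rd unit follows in the same alternation and spacing. Every match of the longer form holds the shorter. The 3-unit form was found before HSPA6 and HSPA8 and in 0.439% of all 27305 promoters. The 2-unit form was found before HSPA6, HSPA1A, HSPA1B, HSPA8 and HSPB1 and in 11.7% of all promoters. The windows below run 5′ to 3′ on the gene's strand, with the units of the element in capitals.
HSPA6, chr1:161524451-161524493, plus strand, 89 to 47 bases before the start: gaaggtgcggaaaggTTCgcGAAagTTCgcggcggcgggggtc
HSPA8 distal, chr11:123062339-123062381, minus strand, 245 to 203 bases before the start: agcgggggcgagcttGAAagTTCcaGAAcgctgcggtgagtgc
HSPA8 proximal, chr11:123062164-123062206, minus strand, 70 to 28 bases before the start: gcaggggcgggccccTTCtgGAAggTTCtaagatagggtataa
HSPA1A, chr6:31815422-31815459, plus strand, 121 to 84 bases before the start: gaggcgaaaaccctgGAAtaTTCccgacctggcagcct
HSPA1B, chr6:31827618-31827655, plus strand, 120 to 83 bases before the start: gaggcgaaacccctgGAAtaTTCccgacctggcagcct
HSPB1, chr7:76302476-76302513, plus strand, 197 to 160 bases before the start: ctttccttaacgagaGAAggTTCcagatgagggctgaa

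The windows of HSPA1A and HSPA1B differ at 1 of 38 bases. A CCAAT box (CCAAT or ATTGG) lay before HSPA1A, HSPA1B, HSPA8, DNAJB1 and HSP90AA1, against 33.0% of all promoters. A TATA box (TATAAA or TTTATA) lay before HSPA1A and HSPA1B, against 11.1%. These letters were not in the windows of HSPH1 and BAG3. A match here is a match of letters only.

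**Figure D1:**
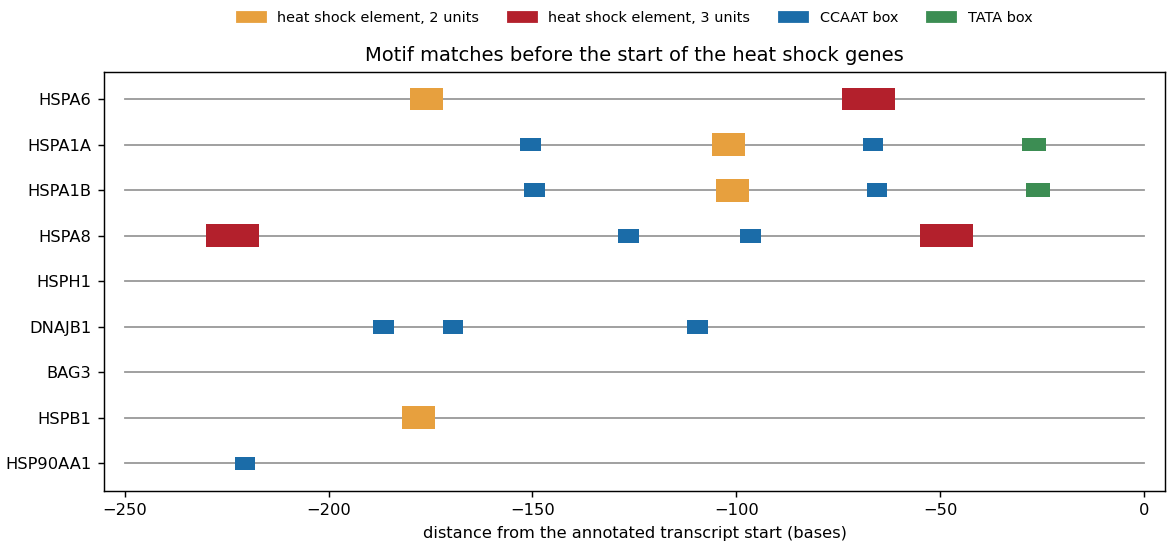
Map of the 250 bases before the annotated start of 9 heat shock genes, with distance from the start in bases on the x axis and a line for each gene. Coloured blocks are matches to the 2-unit and 3-unit heat shock element, the CCAAT box and the TATA box, and HSPA6 and HSPA8 carry the 3-unit matches.

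The group did not move as one. HSPA6 was 2-fold or more higher on both probe sets at 12 h and at 24 h. The HSP70 genes that were already bright in the control, HSPA1A with HSPA1B and HSPA8, were slightly higher at 24 h and at 12 h, though quantile normalization left the lowest 12 h value of each no longer above 0. At 24 h HSP90AA1 was higher on all 4 of its probe sets by very different amounts. HSPB1 was lower, and HSF1, DNAJB1 and BAG3 differed little. Taking the brightest single-gene probe set for each of the 7 genes that have one, the median log2 difference from the control was -0.09 at 12 h and 0.07 at 24 h, beside 0.00 over all 12351 measured genes at both times.

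One of these 7 genes, HSPA6, was 2-fold or more higher at 12 h, where 0.445% of measured genes were, and the same gene was at 24 h, where 0.591% were. None was 2-fold or more lower, against backgrounds of 0.437% at 12 h and 0.640% at 24 h. Any higher value was seen for 2 of 7 at 12 h, against 50.2%, and for 4 of 7 at 24 h, against 48.8%. By probe set, shared ones included, 14 of 21 were higher at 12 h against 48.2% of 29198 measured probe sets, a count that other scalings of the arrays put between 11 and 15. At 24 h 18 of 21 were higher against 49.6%, with a median of 0.23 beside 0.00 over all measured probe sets, and the count was 18 under all 3 other scalings. The 3 that were not were 206976_s_at of HSPH1, 201841_s_at of HSPB1 and 202344_at of HSF1. Probe sets of a gene share that gene's RNA and are not independent. Counting HSPA1A with HSPA1B as 1 unit, all measured probe sets were higher for 4 of 9 units at 12 h and 6 of 9 at 24 h, and all were lower for 4 units at 12 h and 2 at 24 h. The share of all genes with every probe set on one side was not counted. It depends on the number of probe sets per gene, so these unit counts have no background here.

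**Figure D2:**
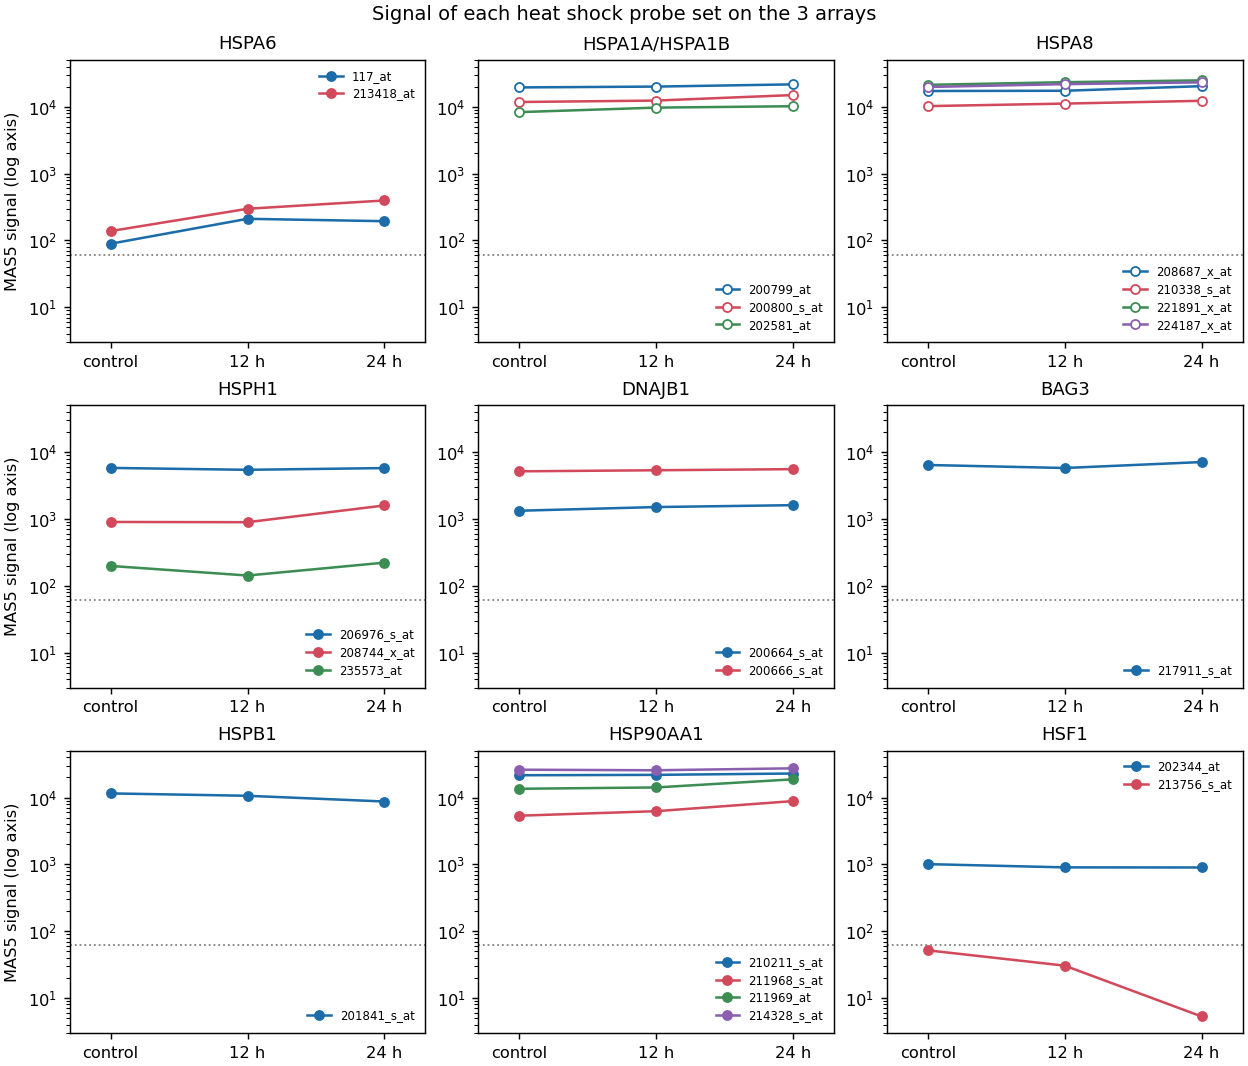
MAS5 signal (log axis) of each heat shock probe set on the control, 12 h and 24 h arrays, a panel per gene. Open symbols are probe sets shared between genes, each point is 1 array, and the dotted line is the floor of 61.4. HSPA6 starts near the floor and is higher at both times, while the bright genes lie almost flat on this axis.

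HSPA6, the strictly stress-inducible HSP70, was read by 2 probe sets that both name it alone. On 213418_at the signal was 138 on the control array, 297.6 at 12 h and 396.1 at 24 h. On 117_at it was 89.3, 210.6 and 193.9. Both treated arrays lay above the control on both probe sets, and the probe sets disagreed on which treated array was higher. The folds over the control were 2.16 at 12 h and 2.87 at 24 h on 213418_at, and 2.36 and 2.17 on 117_at. Among 12351 measured genes HSPA6, read from 213418_at, ranked 33 from the top at 12 h and 8 at 24 h. The other probe set, with the lower fold at 24 h, was not ranked. All of these signals lie between the median and the 75th percentile of their array, which were 61.7 and 434.1 in the control. With the floor raised to the 65th percentile, 192.4 signal units, the log2 difference on 213418_at became 0.63 at 12 h and 1.04 at 24 h. Both are bounds because the control then lay at the floor. On 117_at the treated signals of 210.6 and 193.9 hardly exceed that floor, which leaves no 2-fold difference on this probe set. HSPA7, a near-identical copy, is named for no probe set, and signal shared with it was not tested.

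The genes whose pair of differences from the control lay nearest to that of HSPA6, by Euclidean distance over the 2 differences and 11307 genes above the floor on all 3 arrays, were VWA5A, PGD, SPN, NIBAN1 and KLHDC7B. VWA5A lay at a distance of 0.19, where the control, 12 h and 24 h arrays read 494.6, 961.7 and 1313.2. PGD, an enzyme of the pentose phosphate pathway, lay at 0.19, SPN, sialophorin, at 0.23, NIBAN1 at 0.27 and KLHDC7B at 0.28. No other heat shock gene was among them. A pattern over 3 arrays is a weak measure of likeness.

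HSPA1A and HSPA1B encode the main stress-inducible HSP70, and in these cells their shared probe sets were bright before exposure. On 200799_at the signal was 19497.1 on the control array, 20055.2 at 12 h and 21660.5 at 24 h. On 200800_s_at, which also names HSPA1L, it was 11793.1, 12384.4 and 14979.8, and on 202581_at it was 8320, 9717.6 and 10194.6. All 3 probe sets put the arrays in the same order, with the control lowest and 24 h highest. The log2 differences ran from 0.04 to 0.22 at 12 h and from 0.15 to 0.35 at 24 h, so none reached 1.5-fold. The lowest 12 h value turned to -0.00 with quantile normalization. A probe set of HSPA1L alone had a log2 difference of 0.14 at 12 h and -0.16 at 24 h.

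HSPA8, the constitutive HSP70 of the cytosol, was higher in the same order on all 4 of its probe sets. On 221891_x_at the signal was 21295.5 on the control array, 23336.7 at 12 h and 24847.7 at 24 h, and on 224187_x_at it was 19793.9, 21828 and 23206.2. On 208687_x_at it was 17224.4, 17375.7 and 20357.1, and on 210338_s_at it was 10233, 11164.8 and 12288.6. The 4 log2 differences lay close together, between 0.01 and 0.14 at 12 h and between 0.22 and 0.26 at 24 h. The lowest 12 h value turned to -0.03 with quantile normalization and to -0.01 with cyclic loess, while the 24 h values stayed between 0.15 and 0.26 under all 3 other scalings.

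**Figure D3:**
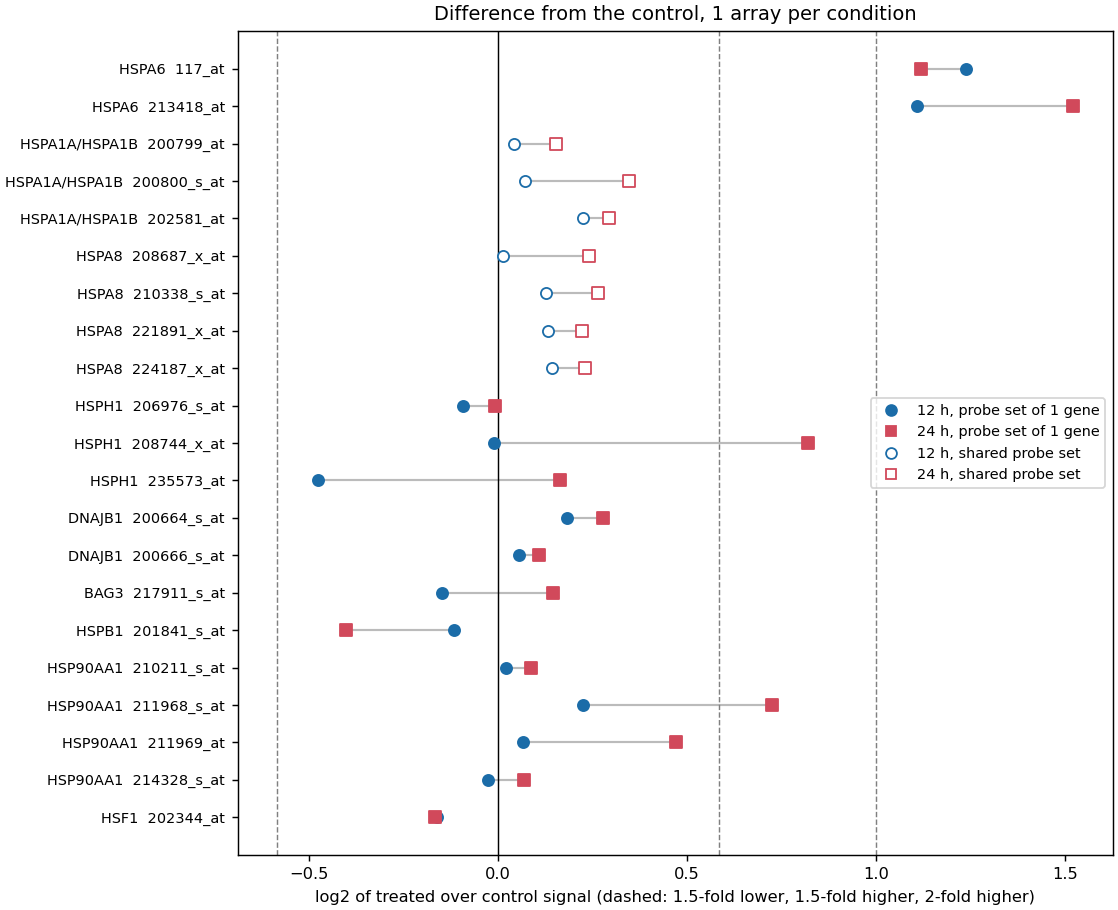
Log2 of treated over control signal (x axis) for the 21 heat shock probe sets above the floor, circles for 12 h and squares for 24 h, open where the probe set is shared between genes. HSPA6 alone lies beyond 2-fold, and the probe sets of HSPH1 and of HSP90AA1 are spread apart at 24 h.

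Among the partners of HSP70, DNAJB1, the J-domain protein that starts its ATP cycle, was slightly higher on both probe sets. Its signal on 200666_s_at was 5167.3 on the control array, 5363 at 12 h and 5571.1 at 24 h, and on 200664_s_at it was 1329, 1508.9 and 1610.3. The log2 differences were 0.05 and 0.18 at 12 h and 0.11 and 0.28 at 24 h. BAG3, a nucleotide exchange factor that links HSP70 to selective autophagy, had 1 probe set, with a signal of 6430.9 on the control array, 5795.7 at 12 h and 7115.7 at 24 h. It was lower by 0.15 at 12 h on the log2 scale (-0.15) and higher by 0.15 at 24 h.

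HSPH1, the HSP110 exchange factor of HSP70, gave 3 answers on 3 probe sets. On the brightest, 206976_s_at, the signal was 5813.4 on the control array, 5446.2 at 12 h and 5780.3 at 24 h, so the arrays hardly differed. On 208744_x_at it was 902.5, 895.2 and 1594.2, a log2 difference of 0.82 at 24 h after -0.01 at 12 h. On 235573_at it was 198.3, 142.5 and 222.1, with -0.48 at 12 h and 0.16 at 24 h. No probe set was above the control at 12 h, and all 3 were higher at 24 h than at 12 h, by between 0.09 and 0.83. The gene thus has no settled difference from the control at 24 h.

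HSP90AA1, the stress-inducible cytosolic HSP90, was likewise read differently by its 4 probe sets, all annotated to it alone. On 211968_s_at the signal was 5354.4 on the control array, 6253.4 at 12 h and 8852.3 at 24 h, and on 211969_at it was 13536, 14173.1 and 18745.9. On 210211_s_at it was 21575.8, 21864.3 and 22911.9, and on 214328_s_at 26112.2, 25622.6 and 27394.8. The array at 24 h was the highest on all 4 probe sets. The log2 differences at 24 h were 0.73, 0.47, 0.09 and 0.07 in that order, against 0.22, 0.07, 0.02 and -0.03 at 12 h.

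The 1.5-fold mark at 24 h was passed by 4 of 21 heat shock probe sets, both of HSPA6, 208744_x_at of HSPH1 at 1.77-fold and 211968_s_at of HSP90AA1 at 1.65-fold, against 5.94% of all measured probe sets. At 12 h it was passed by the 2 probe sets of HSPA6, against 3.63%. None was 1.5-fold lower, against 3.90% at 12 h and 5.42% at 24 h.

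HSPB1, the small heat shock protein HSP27, which holds unfolded proteins without ATP and stabilises actin, went the other way. On its only probe set the signal was 11540.5 on the control array, 10633.6 at 12 h and 8730.4 at 24 h. The control was the highest and 24 h the lowest, with log2 differences of -0.12 and -0.40, the latter 1.32-fold lower. Of measured genes, 11.5% lay below HSPB1 in their 24 h difference.

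HSF1, the transcription factor that drives the group, was slightly lower in messenger level on its measured probe set. Its signal on 202344_at was 1008.7 on the control array, 902 at 12 h and 898.4 at 24 h, with log2 differences of -0.16 and -0.17. HSF1 is controlled mainly at the protein level, which these arrays do not measure.

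The 24 h array was set against the 12 h array directly as well, a comparison that leaves out the shared control. By probe set 18 of 21 heat shock values were higher at 24 h, against 48.8% of all measured probe sets, with a median of 0.10 beside 0.00. That share rose with brightness. It was 81.4% above 20000 control signal units, 59.8% between 10000 and 20000 and 48.5% between 5000 and 10000. These classes hold 3, 7 and 5 of the heat shock probe sets, so 48.8% is not a matched background. None of the 21 was 2-fold or more higher, against 0.644%. The 2 that were 1.5-fold or more higher, against 3.75%, were 208744_x_at and 235573_at of HSPH1. HSPA6 differed by 0.41 on 213418_at and by -0.12 on 117_at, and HSPB1 by -0.28.

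Bright probe sets varied less on these arrays, and most heat shock genes are bright. Of the 21 probe sets 15 had a control signal of 5000 or more. Of all 1898 probe sets this bright, 0.580% were 1.5-fold or more higher at 12 h and 0.948% at 24 h, and 0.0527%, or 1 of them, was 2-fold different from the control at 24 h. Over 13 of these 15 heat shock probe sets the 24 h value was above the control, against 55.2% of all. In the class above 20000 control signal units 77.6% of 156 probe sets were above the control at 24 h, with a median of 0.05, and the central 95% ran from -0.14 to 0.23. The HSPA8 value of 0.22 on 221891_x_at and both HSP90AA1 values in this class lay within that range. Between 10000 and 20000 the central 95% ran from -0.42 to 0.38, which holds HSPB1 at -0.40 and 200800_s_at of HSPA1A and HSPA1B at 0.35 but not 211969_at of HSP90AA1 at 0.47. Between 5000 and 10000 it ran from -0.54 to 0.45, and 211968_s_at of HSP90AA1 lay above it. The highest signal on any array was 34145, at 24 h, and how far the brightest probe sets were near the upper end of the scanner's range was not tested.

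**Figure D4:**
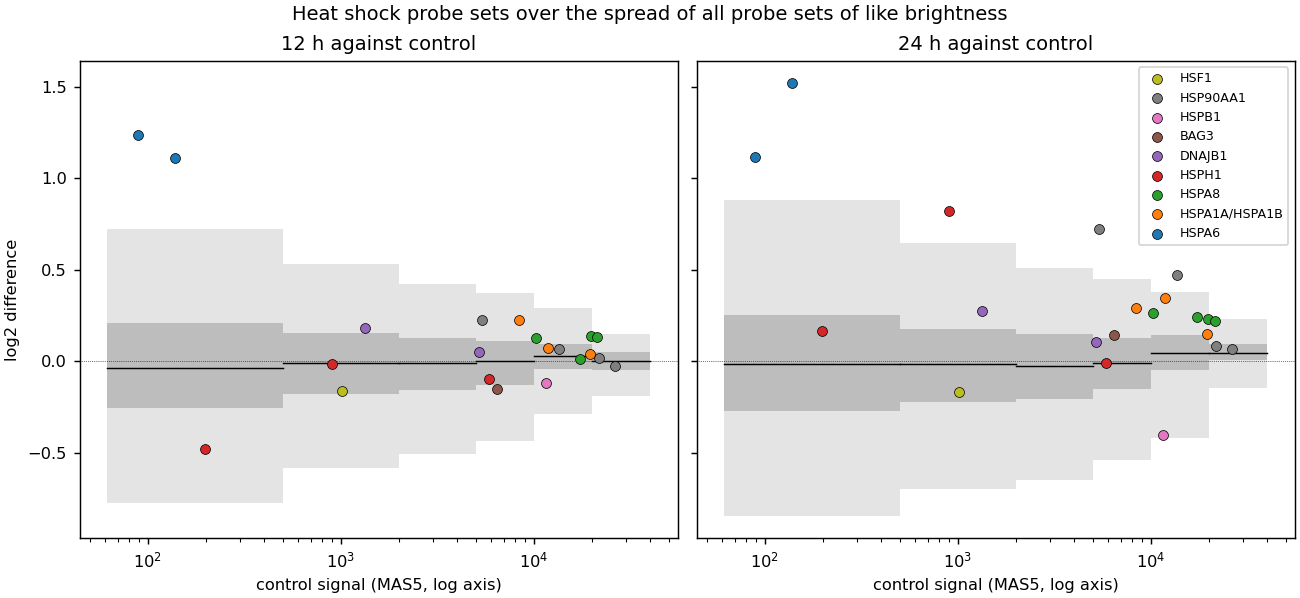
Log2 difference from the control (y axis) against control signal (log x axis) for the heat shock probe sets, at 12 h and 24 h. Grey bands are the central 95% and the middle quartiles of all measured probe sets in 6 classes of control signal, with the black line at the class median. The bands narrow with signal, and at 24 h HSPA6, 208744_x_at of HSPH1 and 2 of the 4 HSP90AA1 probe sets lie above the wider band.

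Facts of the arrays that bear on these values were few. Median signals were 61.7 for the control, 60.6 for 12 h and 61.8 for 24 h. The ratio of 3' to 5' signal of ACTB, which reflects RNA integrity and labelling length, was 4.95, 5.38 and 6.55, and that of GAPDH was 1.21, 1.25 and 1.24. The ACTB ratio was thus highest on the 24 h array, the array on which the probe sets of HSPH1 and HSP90AA1 disagreed most, and its part in that was not tested. All 7 epithelial markers read, among them EPCAM, KRT18 and CDH1, were measured, with summed signals of 70406.5, 67427.3 and 68579.4. Of these 7 genes 6 were below the control at 12 h and 5 at 24 h, KRT19 being at -0.54 and -0.60 and EGFR at -0.32 at 12 h. Of 5 leukocyte and erythroid markers 3 had a probe set of their own, PTPRC and CD3E lay below the floor on all arrays, and HBB had 43.7, 90.6 and 42.9 signal units on its brightest probe set and a difference of -0.11 at both times on its other measured one, all close to the floor. The fibroblast and endothelial markers numbered 6, of which 3 were measured and DCN, PDGFRB and VWF were not. The summed signals of the 6, from 1 probe set each, were 1829.6, 1516.6 and 1229.5. The measured probe sets of COL1A1 disagreed, running from -0.08 to 0.87 at 12 h and from -0.56 to 0.50 at 24 h. Those of COL3A1 and PECAM1 all lay below the control. In RNA of whole cultures, fewer cells of a kind and less RNA per cell cannot be told apart, and the part of either in the heat shock values was not tested.

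The wider chaperone network was read from 9 lists of genes that share a role with the heat shock genes, 83 genes in all, of which 79 had a probe set of their own and 70 were measured. At 12 h 54 of the 70 were above the control, against 50.2% of all measured genes, 4 were 1.5-fold or more higher, against 3.41%, and 1 was 1.5-fold or more lower, against 3.10%. At 24 h 57 of 70 were above the control, against 48.8%, 9 were 1.5-fold or more higher, against 4.09%, and 1 was lower by that much, against 4.91%. The medians were 0.14 and 0.17. When only transcript-specific probe sets were read, 6 of 51 measured genes were 1.5-fold or more higher at 12 h and 5 of 51 at 24 h. The share of all genes past 1.5-fold was not counted on those probe sets.

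Other members of the HSP70 and HSP110 family were mixed. Above the control were 3 of 6 measured genes at 12 h and 4 at 24 h, against 50.2% and 48.8% of all measured genes. None was 1.5-fold or more higher, against 3.41% and 4.09%, or lower, against 3.10% and 4.91%. HSPA14, a ribosome-bound HSP70, was at 0.05 and 0.40, which became 0.01 when the median of its probe sets was taken. HSPA4L, an HSP110 relative, was at -0.10 and -0.38, and at -0.39 and -0.68 as the median of probe sets. HSPA12A was at 0.36 and 0.25 from a signal of 89 near the floor, and HSPA2 at -0.14 and 0.06.

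Of 11 J-domain co-chaperones 8 were above the control at 12 h and 7 at 24 h, against 50.2% and 48.8% of all measured genes. DNAJB2, a neuronal and ubiquitin-linked J protein, was at 0.54 and 0.56, and DNAJB4 at 0.34 and 0.29. DNAJA2 was at 0.32 and 0.27, but its other probe set lay below the control at -0.12 and -0.18. DNAJB5 was the 1 gene of the network 1.5-fold lower at 24 h, at -0.66 after 0.07 at 12 h, with signals of 140.9, 148.2 and 88.9. Of 8 exchange factors and HSP70 cofactors 6 were above the control at 12 h and 6 at 24 h, against the same shares. These were not all the same genes, as BAG1 was above only at 24 h and HSPBP1 only at 12 h. STIP1, the adaptor between HSP70 and HSP90, had signals of 1682.5, 1932.3 and 2643.3 and was at 0.20 and 0.65, or 0.32 at 24 h by the median of its probe sets. BAG2 was at 0.09 and 0.30. BAG4 was at -0.13 and -0.24, or 0.02 at 24 h as the median, and STUB1, the ubiquitin ligase CHIP, at 0.21 and 0.11, or -0.05 and 0.01 as medians.

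Among HSP90 and its co-chaperones 6 of 9 measured genes were above the control at 12 h and 7 at 24 h. The shares of all measured genes were 50.2% and 48.8%. FKBP4, an immunophilin of steroid receptor complexes, was at 0.47 and 0.53, or 0.22 and 0.28 by the median of its 3 measured probe sets, and its transcript-specific probe set turned the direction, at -0.52 both times. PPID, a cyclophilin, was at 0.41 and 0.33, or 0.13 and -0.09 on transcript-specific probe sets. FKBP5, the glucocorticoid-regulated immunophilin, was at -0.26 and -0.52, and its other measured probe set at -0.18 and -0.19. UNC45A, a myosin chaperone, was at -0.61 at 12 h, or -0.58 and short of 1.5-fold with the arrays centred on one median, and -0.11 at 24 h, with medians of -0.30 and 0.32 that turn the 24 h direction.

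Only 2 of the other small heat shock proteins were measured. HSPB8, the partner of BAG3 in selective autophagy, had signals of 1220.6, 1806.2 and 2253.7, with differences of 0.57 at 12 h and 0.88 at 24 h, or -0.07 at 12 h and 0.52 at 24 h on a transcript-specific probe set, which turns the 12 h direction. CRYAB had signals of 11, 80.6 and 71.5, so its control lay below the floor and its 0.39 and 0.22 are bounds. Among heat shock factors and their regulators HSF4 and HSF5 were not measured. HDAC6, a deacetylase that carries unfolded protein to aggresomes, was at 0.31 and 0.81 with signals of 399.5, 494.7 and 701.5. Its other measured probe set was at 0.00 and 0.37. The control and 12 h values of that probe set were identical once floored, so 0.37 may be a bound. The segregase VCP was at 0.30 and 0.50. HSF2BP was at -0.19 and -0.08, and EEF1A1 at 0.03 and 0.09, or -0.65 at 24 h on transcript-specific probe sets. The 6 probe sets of EEF1A1 ran from -1.27 to 0.08 at 12 h, with 3 above the control. At 24 h they ran from -1.32 to 0.09, with 4 above it.

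Stress-inducible genes that HSF1 is known to bind, other than those above, had the highest medians of the lists with more than 5 measured genes. These were 0.32 at 12 h and 0.33 at 24 h. Above the control were 9 of 11 at both times, against 50.2% and 48.8% of all measured genes. At 12 h 3 were 1.5-fold or more higher, against 3.41% of all measured genes. They were RGS2, a regulator of G-protein signalling, at 0.60, TRIM16 at 0.69 and GCLM, a subunit of the glutathione-making enzyme, at 0.60. At 24 h 3 were as well, against 4.09%. They were RGS2 at 0.82, CLU, the extracellular chaperone clusterin, at 0.72 and ZFAND2A, an arsenite-inducible proteasome partner, at 0.67. TRIM16 then stood at 0.53 and GCLM at 0.51. TRIM16 and GCLM are also known targets of NRF2. RGS2 and CLU had control signals of 154.4 and 141, and with the floor at the 65th percentile their 24 h differences were 0.50 and 0.27, and that of RGS2 at 12 h was 0.28. GCLM fell just short of 1.5-fold at 12 h with quantile normalization and with cyclic loess, at 0.58 in both. SERPINH1, the collagen chaperone, was at 0.37 and 0.33, and the mitochondrial chaperonins HSPD1 and HSPE1 were at 0.01 and -0.12 at 12 h and at 0.10 and -0.18 at 24 h, genes chosen after their values were seen.

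Chaperones of other compartments were read in the same way. Of 7 mitochondrial chaperones and proteases, 6 at 12 h and 7 at 24 h were above the control, against 50.2% and 48.8% of measured genes, with medians of 0.24 and 0.21. LONP1, a matrix protease, was at 0.44 and 0.59, HSPA9, the mitochondrial HSP70, at 0.15 and 0.30, or 0.55 and 0.52 on transcript-specific probe sets, CLPP at 0.28 and 0.21 and GRPEL2 at 0.27 and 0.21. All 10 reticulum chaperones were above the control at both times, against the same shares, with medians of 0.18 and 0.23 and 24 h values as low as 0.05 for CALR and 0.08 for DNAJC3. HSPA5, the reticulum HSP70, was at 0.69 and 0.76, and its other probe set at 0.52 and 0.46, short of 1.5-fold. DNAJB11 was at 0.39 and 0.28 and HYOU1 at 0.20 and 0.46. HSP90B1, the reticulum HSP90, was at 0.16 and 1.37 with signals of 2825, 3150.2 and 7303.3, and like its cytosolic relative it was split. Its brightest probe set, which the annotation shares with MIR3652, had signals of 15871.8, 17572.3 and 17864.2 and a 24 h difference of 0.17, and another shared probe set gave 1.65.

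**Figure D5:**
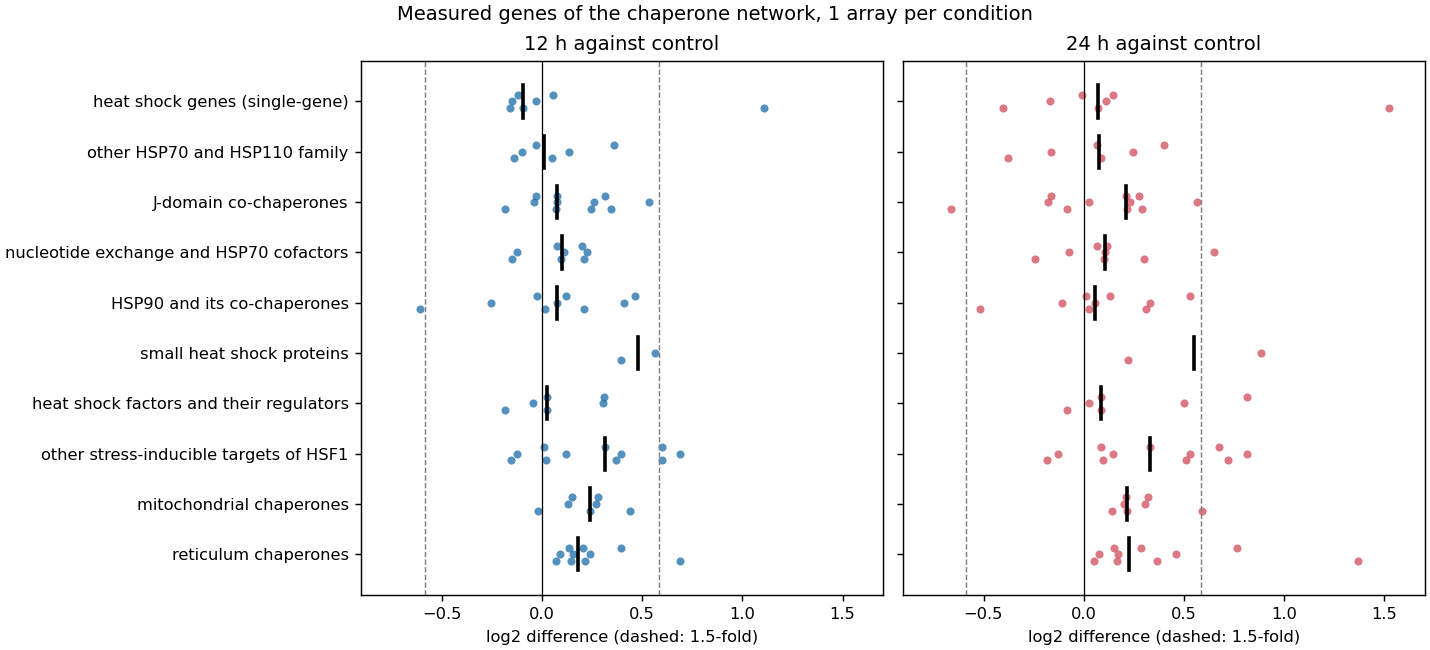
Log2 difference from the control (x axis) of each measured gene of the heat shock group and of 9 chaperone lists, at 12 h and 24 h. Each point is 1 gene on 1 pair of arrays, bars are list medians and dashed lines mark 1.5-fold. HSPA6 and HSP90B1 are the genes farthest to the right at 24 h, and all 10 reticulum chaperones lie right of 0.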

How the data were processed

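Total RNA of control and colossolactone H treated NCI-H1650 cells was measured on 3 arrays, 1 per group. The deposited values were linear signal intensity per probe set, made by the authors with MAS5, per the submitters' processing notes, whose version and settings are not given in the sources used here. All arrays shared a mean of 500 once 2% was trimmed at each end, so no further scaling was applied. Symbols came from the platform annotation, which gave 1 gene for 41097 probe sets, several for 1801 and none for 11777. Signals below the 50th percentile, 61.4, were set to that floor, and a probe set or gene was measured if above it on any array. Each gene was read from its probe set with the highest mean signal among those naming it alone. Differences are log2 ratios of a pair of arrays, counted at 1.5-fold and 2-fold. Without replicates no test was run, and the number of arrays limits the precision.

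Named network genes were, per list, up to 4 that differed most from the control on average, and all 1.5-fold different at either time. The heat shock genes and all lists were chosen with earlier results of these data known. Promoters came from RefSeq. Alternatives were median centring, quantile normalization and cyclic loess (limma 3.58.1, R 4.3.3), floors at the 25th and 65th percentile or none with a pseudocount of 1, and other probe set rules. Python 3.11.15 and pandas 2.3.3 were used, and the procedure was tested on simulated data.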

Additional observations from a re-analysis of the deposited data

Results flagged for a closer look

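With 1 array per time, values on opposite sides of the control at 12 h and 24 h were flagged whatever their size, and these differences were not tested. HSPH1 differed between 24 h and 12 h by 0.83 on 208744_x_at (-0.01, then 0.82) and by 0.64 on 235573_at (-0.48, then 0.16). BAG3 differed by 0.30 (-0.15, then 0.15), and 214328_s_at of HSP90AA1 by 0.10 (-0.03, then 0.07). Of the 70 measured network genes 11 lay on opposite sides of the control. The share of all measured genes that did so was not counted, so 11 cannot be called many or few. The value was lower at 24 h for DNAJB5 by -0.74 (0.07, then -0.66), DNAJB6 by -0.41 (0.25, then -0.16), HSPBP1 by -0.30 (0.23, then -0.08) and HSPA1L by -0.30 (0.14, then -0.16). It was higher for BAG1 by 0.26 (-0.15, then 0.12), DNAJC8 and HSPA2 each by 0.21, DNAJA3 by 0.16, IER5 by 0.13, HSPA4 by 0.12 and CACYBP by 0.078.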

How the results depend on the processing

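Over the 3 comparisons and 9 alternatives, 178 of 180 values of the 7 single-gene heat shock genes kept their side of 1.5-fold. The exceptions were HSPH1 for 24 h against 12 h, at 0.64 both as the median over probe sets and on transcript-specific probe sets. With the floor at the 65th percentile 0 of the 7 genes were 2-fold higher at 12 h, as HSPA6 stood at 0.63. HSPA6 remained 2-fold higher at 24 h under all 9, but at this raised floor on 213418_at only. On transcript-specific probe sets, which 4 of the genes have, the median over the heat shock genes was 0.32 for 24 h against control and 0.41 for 24 h against 12 h. The count of network genes 1.5-fold higher was 5 of 51 there for 24 h against control, beside 9 of 70 with the main settings. For 24 h against 12 h it was 1 of 70 with the main settings and 3 of 77 with the floor at the 25th percentile. It was 2 of 70 with the median over probe sets and 0 of 71 with shared probe sets. The share of all genes at 1.5-fold was not counted for this pair of arrays or for these alternatives. EEF1A1 turned to -0.65 for 24 h against control on transcript-specific probe sets. The causes of these were not tested.

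Counts of all genes 2-fold different changed with how dim signals were treated. They were 109 at 12 h and 152 at 24 h against the control, and 40 between the treated arrays. They became 1531, 1642 and 1489 with the floor at the 25th percentile, 44, 63 and 6 at the 65th, and 375, 426 and 267 with no floor over the same 12351 genes. No paired analysis was possible because each group held 1 array. No array could be left out for the same reason. Signal over background limits HSPA6, whose control signals lie near the floor.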
